A study of Mus musculus with 11 samples.

Results

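The genes described here make cyclic AMP, break it down and carry its signal through protein kinase A (PKA) to the transcription factor CREB. They were chosen by gene symbol, with earlier results of these data known. In the count table, 42 rows of the 18756 genes matched: 10 adenylyl cyclases (Adcy), 21 phosphodiesterases (Pde), 6 PKA subunits (Prkaca, Prkacb and Prkar) and 5 CREB-family factors or coactivators (Creb1, Crem and Crtc). The 42 rows carry 41 symbols, because Pde4d has 2 gene IDs. A filter on low counts kept 40 of the 42 for testing, and Adcy10 and Pde6b did not pass it.

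RNA was sequenced from 11 skin tumours of C57BL/6 mice taken at end point in a genetically engineered melanoma model. The genotype GNA11 Q209L had 2 tumours, GNA11 Q209L Bap1 KO had 5, and BRAF V600E Bap1 KO, the only genotype with BRAF, had 4. GNA11 Q209L is an activated G protein alpha subunit of the Gq class, BRAF V600E is an activated kinase of the MAPK cascade, and Bap1 is a nuclear deubiquitinase that acts as a tumour suppressor. GNA11 Q209L Bap1 KO was compared with GNA11 Q209L to ask what changes when Bap1 is knocked out beside GNA11 Q209L, and with BRAF V600E Bap1 KO to ask what differs between the oncogenes when both carry the knockout. Both comparisons use the same 5 GNA11 Q209L Bap1 KO libraries, and GNA11 Q209L against BRAF V600E Bap1 KO, in which oncogene and Bap1 differ together, was given as a secondary comparison. The labels name no promoter for Cre or the transgenes, no sex, age, litter or sequencing batch. Nothing in them says whether tumours came from separate animals, so p-values measure only the spread between these samples, and the titles of replicates 1 and 2 of GNA11 Q209L Bap1 KO share an identifier.

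Library totals ran from 18338082 to 81035135 counts. The human GNA11-Q209L sequence had 120 to 2807 counts in the 7 GNA11 libraries and at most 5 in the 4 BRAF libraries. The human BRAF sequence had 43 to 81 counts in the BRAF libraries and at most 1 elsewhere. The FLPe recombinase sequence had 1 count in each GNA11 Q209L library. It had 1244, 659, 1, 3242 and 7563 counts in GNA11 Q209L Bap1 KO and 6618, 3353, 12 and 3987 in the BRAF libraries. FLPe thus differed along with Bap1 under GNA11, except in replicate 3 of the knockout. The CreERT2 sequence had 2904 to 13760 counts in the GNA11 libraries and 15, 6, 708 and 21 in the BRAF libraries. Bap1 itself was at 85.1 and 137 CPM in the GNA11 Q209L tumours, at 102, 129.8, 103, 102 and 170.1 CPM in those of GNA11 Q209L Bap1 KO, and at 59.9, 57.6, 71.3 and 54.7 CPM in the BRAF tumours. The labels do not say which exons the knockout removes, so this total over the whole gene does not check the genotype. The table's own header lines differ on it: its top line gives a floxed Bap1 allele for all 4 BRAF V600E Bap1 KO libraries, and its lower line gives NA for replicates 2 and 4, so results that change without those libraries are given both ways. The 9 melanocyte markers (Pmel, Tyr, Sox10 and others) summed to 67351 and 68669 CPM in GNA11 Q209L, to 77389 to 100880 CPM in the GNA11 Q209L Bap1 KO tumours, and to 50.7 to 655 CPM in the BRAF tumours (CPM, a count scaled to a common library size). None of the 9 was at 0 in all libraries of a genotype. In BRAF V600E Bap1 KO, the keratinocyte markers summed to 182 and 388 CPM in replicates 1 and 2 and to 14253 and 5505 CPM in replicates 3 and 4, and replicate 4 also held 134050 CPM of salivary gland and 5058 CPM of skeletal muscle markers. The deposited measure of 5' bias was 0.82 to 0.85 in the GNA11 Q209L Bap1 KO tumours and 0.74 to 0.81 in the BRAF tumours. The part of these differences in the results was not tested, and in bulk tumours fewer cells of a type and less RNA per cell cannot be told apart.

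Adenylyl cyclases turn ATP into cyclic AMP when a receptor coupled to the stimulatory G protein Gs is engaged, and phosphodiesterases hydrolyse it. Cyclic AMP frees the catalytic subunits of PKA from their regulatory subunits, and PKA phosphorylates CREB, whose CRTC coactivators enter the nucleus when their inhibiting kinases are themselves inhibited. In melanocytes this is the route from the melanocortin 1 receptor to the transcription factor Mitf and to pigment synthesis.

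Between the oncogenes, members of the same enzyme family differed in opposite directions. GNA11 Q209L Bap1 KO tumours had more of the cyclases Adcy7, Adcy9 and Adcy3, of the phosphodiesterases Pde11a, Pde3a and Pde5a, of the PKA subunits Prkaca and Prkar1a and of the CREB coactivators Crtc1 and Crtc3. BRAF V600E Bap1 KO tumours had more Adcy6, Adcy5 and Adcy8 and more Pde3b, Pde1a, Pde4b and Pde9a. In edgeR's quasi-likelihood test at an adjusted p under 0.05, 17 of the 40 tested members (42.5%) differed, 10 with a higher level in GNA11 Q209L Bap1 KO and 7 with a lower one. Of all 17350 genes tested, 41.2% passed in this comparison, 16.5% higher and 24.7% lower, so the members' share was near that of all genes. The median log2 fold change was 0.07 over the tested members and -0.26 over all genes. Members whose 2 genotypes did not overlap numbered 12 of 40, against 31.8% of all genes. In the same comparison 8 of the 9 melanocyte markers were higher in GNA11 Q209L Bap1 KO, and their part in the members' differences was not tested.

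Bap1 status under GNA11 left the list without a call. None of the 40 members passed in GNA11 Q209L Bap1 KO against GNA11 Q209L by edgeR, where 5 of 17350 genes passed (0.0288%). At an unadjusted p under 0.05 there were 5 members (12.5%, against 11.4% of all genes). DESeq2 called 2 of 42 members and 451 of 18756 genes, and limma voom 1 of 40 members and 5 of 17350 genes. The member with the smallest p, Pde11a, had a log2 fold change of 3.24 and an adjusted p of 0.0867. In the secondary comparison 7 of 40 members passed, against 15.2% of all genes. Pde11a, Adcy7, Adcy9, Pde2a and Prkaca were higher in GNA11 Q209L (9.27% of all genes were), and Pde3b and Adcy6 were lower (5.93%). None of the 7 passed with only the libraries of those 2 genotypes in the fit.

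**Figure D1:**
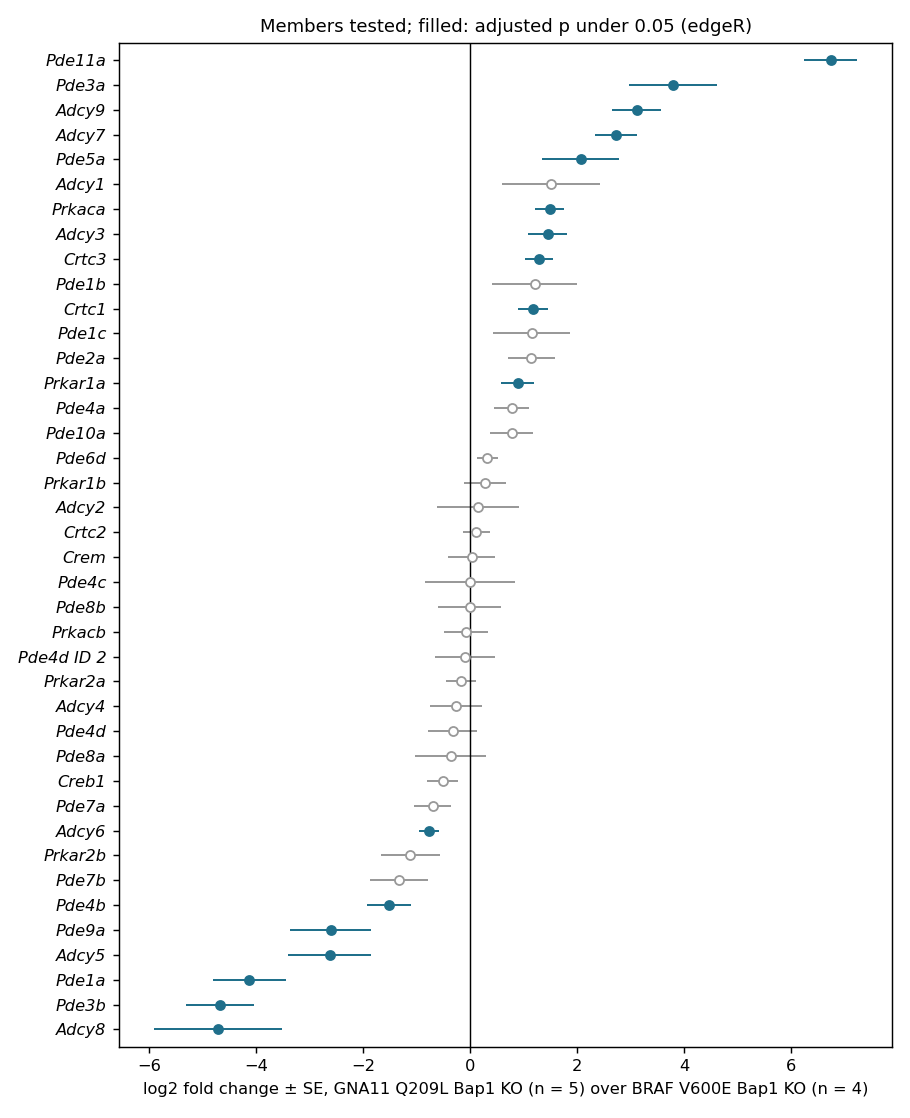
Log2 fold change of GNA11 Q209L Bap1 KO (5 libraries) over BRAF V600E Bap1 KO (4 libraries) for the 40 members tested, with bars of 1 standard error and filled points for an adjusted p under 0.05 in edgeR. Pde11a at 6.73 and Adcy8 at -4.71 are the ends of the range.

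Among the adenylyl cyclases, 9 of 10 were tested, and 3 were higher, 3 lower and 3 without a call in GNA11 Q209L Bap1 KO against BRAF V600E Bap1 KO. Of all genes tested, 16.5% were higher and 24.7% lower. Adcy7, a cyclase that the G protein beta-gamma subunits and protein kinase C are known to stimulate, was at 220.1 and 796 CPM in the GNA11 Q209L tumours, at 821, 935, 493, 849 and 817 CPM in those of GNA11 Q209L Bap1 KO, and at 102, 119.9, 103 and 149.9 CPM in the BRAF tumours. Every GNA11 library was above every BRAF library, and the GNA11 Q209L Bap1 KO and BRAF means were 783 ± 169 and 119 ± 22.4 CPM (SD, n = 5 and n = 4), a 6.6-fold difference (log2 fold change 2.72 ± 0.39, adjusted p = 0.00102). Within GNA11 Q209L the 2 libraries were far apart, at 220 and 796 CPM. In the secondary comparison the Adcy7 log2 fold change was 2.10 (adjusted p = 0.0163) and 0.90 (adjusted p = 0.296) without GNA11 Q209L replicate 2, which ended the call, as did leaving out BRAF replicates 2 and 4 (adjusted p = 0.0603). Adcy9, a widely expressed cyclase that forskolin activates poorly, was at 21 and 54.2 CPM in the GNA11 Q209L tumours, at 53.9, 105, 113, 67.2 and 61.5 CPM in those of GNA11 Q209L Bap1 KO, and at 9.01, 4.67, 7.52 and 16 CPM in the BRAF tumours. Its GNA11 Q209L Bap1 KO mean was 8.61 times the BRAF V600E Bap1 KO mean (log2 fold change 3.11 ± 0.45, adjusted p = 0.00106), again without overlap. GNA11 Q209L was also above the BRAF tumours (log2 fold change 2.02, adjusted p = 0.0283), a call lost without GNA11 Q209L replicate 2 (1.19, adjusted p = 0.318), without BRAF replicate 3 (adjusted p = 0.0513), without BRAF replicates 2 and 4 (0.053) and with Xist as a covariate (0.0643).

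Adcy3, known for its part in odour detection and in primary cilia, was at 22.2 and 57.1 CPM in the GNA11 Q209L tumours, at 70.9, 75.4, 56.6, 65 and 95 CPM in those of GNA11 Q209L Bap1 KO, and at 46.2, 23.8, 19.8 and 16.7 CPM in the BRAF tumours. It was above the BRAF tumours in GNA11 Q209L Bap1 KO (log2 fold change 1.45 ± 0.37, adjusted p = 0.012) with no overlap, with an adjusted p of 0.114 when BRAF replicates 2 and 4 were left out. The upstream sequence, the 250 bases before the annotated start, was read for 33 of the 41 symbols from the RefSeq table on GRCm38.p6 and searched on both strands for the cyclic AMP response element (CRE, TGACGTCA), its core (TGACG or CGTCA, which every CRE contains), the M-box (TCATGTG or CACATGA) and the E-box (CACGTG). A gene counted if any of its start sites had the motif. No window was available for Adcy6, Adcy8, Crem, Crtc2, Pde3a, Pde3b, Pde7a and Pde9a, so these were not searched. The core was present in 10 of the 33 members (30.3%, and 19.8% of 27025 genes). Among called members with upstream sequence, the core was in 4 of the 9 raised against the BRAF tumours (44.4%). It was also in 2 of the 3 lowered ones (66.7%, Pde1a and Pde4b), so it occurred in both directions. Adcy7 and Adcy9, the cyclases with the smallest p-values, are among the 10. Their windows are shown because both genes were higher in GNA11 Q209L Bap1 KO. The core is in capitals, its first base 28 bases before the start in Adcy7 (chr8:88282742-88282991, plus strand, the first of 3 start sites) and 24 bases before it in Adcy9 (chr16:4420499-4420748, minus strand).
Adcy7: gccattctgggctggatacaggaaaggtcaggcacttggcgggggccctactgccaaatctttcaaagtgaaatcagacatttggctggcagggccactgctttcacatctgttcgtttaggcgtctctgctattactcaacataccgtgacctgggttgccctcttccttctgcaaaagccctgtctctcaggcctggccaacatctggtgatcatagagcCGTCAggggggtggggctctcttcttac
Adcy9: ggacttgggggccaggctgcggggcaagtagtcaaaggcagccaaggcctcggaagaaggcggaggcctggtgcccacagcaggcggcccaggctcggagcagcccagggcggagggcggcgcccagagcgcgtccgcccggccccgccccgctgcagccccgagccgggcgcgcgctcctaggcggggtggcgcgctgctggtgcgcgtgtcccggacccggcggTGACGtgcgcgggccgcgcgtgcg
Neither window holds an intact CRE, M-box or E-box. A match describes these letters only.

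Adcy6, a cyclase inhibited by calcium and by Gi, went the other way and was at 60.5 and 65.1 CPM in the GNA11 Q209L tumours, at 78.3, 78.6, 98, 91.9 and 92.6 CPM in those of GNA11 Q209L Bap1 KO, and at 197, 127, 143 and 131 CPM in the BRAF tumours. The 4 BRAF libraries were above all 7 GNA11 libraries (log2 fold change -0.77 ± 0.18, adjusted p = 0.00928). In the secondary comparison its log2 fold change was -1.25 (adjusted p = 0.0136), with adjusted p = 0.0714 without GNA11 Q209L replicate 1 and 0.115 without replicate 2. Adcy5, its closest relative and the main cyclase of the striatum, was at 5.1 and 1.34 CPM in the GNA11 Q209L tumours, at 0.706, 1.27, 2.7, 2.67 and 1.69 CPM in those of GNA11 Q209L Bap1 KO, and at 2.09, 3.07, 24.9 and 14.7 CPM in the BRAF tumours. It was called lower (log2 fold change -2.63 ± 0.77, adjusted p = 0.0215), although BRAF replicate 1, at 2.09 CPM, lay inside the GNA11 Q209L Bap1 KO range. The call was lost without BRAF replicate 3 (log2 fold change -1.88, adjusted p = 0.0724), without replicate 2 of GNA11 Q209L Bap1 KO (-2.48, adjusted p = 0.0502) and with limma voom (-1.73, adjusted p = 0.149). Replicates 3 and 4, with the most Adcy5, were also the BRAF libraries with the most keratinocyte and Schwann cell markers (1325 and 696 CPM for the Schwann cell list, 25.6 and 36.7 CPM in replicates 1 and 2), and the part of those cells was not tested.

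Adcy8, a calcium-stimulated cyclase of the brain, was close to the detection floor. It was at 0.0523 and 0.134 CPM in the GNA11 Q209L tumours, at 0.109, 0, 0.0541, 0.0476 and 0.104 CPM in those of GNA11 Q209L Bap1 KO, and at 1.11, 0.307, 0.0696 and 5.9 CPM in the BRAF tumours, and 3 counts correspond to 0.037 to 0.164 CPM in a library. BRAF replicate 4, the library with salivary gland and skeletal muscle markers, had 5.90 CPM and the other 3 BRAF libraries between 0.0696 and 1.11 CPM. The fitted difference was large (log2 fold change -4.71 ± 1.19, adjusted p = 0.0117) but gave an adjusted p of 0.0859 with limma voom, and BRAF replicate 3 lay inside the range of GNA11 Q209L Bap1 KO. Adcy8 did not pass the filter on low counts, and so was not tested, in 4 of the 19 alternatives: without BRAF replicate 1, without BRAF replicate 4, without BRAF replicates 2 and 4, and with only the 2 genotypes compared.

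Of the cyclases without a call, Adcy2 and Adcy1 varied widely within genotypes. Adcy2 spanned 9.68 to 89.1 CPM over the GNA11 Q209L Bap1 KO tumours and 6.27 to 104 CPM over the BRAF tumours. Adcy1, a calcium-stimulated neuronal form, spanned 5.57 to 41.2 CPM and 1.06 to 18.5 CPM in the same genotypes. Adcy4 spanned 4.90 to 13.1 CPM in the GNA11 Q209L Bap1 KO tumours and was at 27.0 and 13.3 CPM in GNA11 Q209L, without overlap, and had no call. The soluble, bicarbonate-responsive Adcy10 lay between 0.0892 and 0.682 CPM in all libraries and was not tested.

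**Figure D2:**
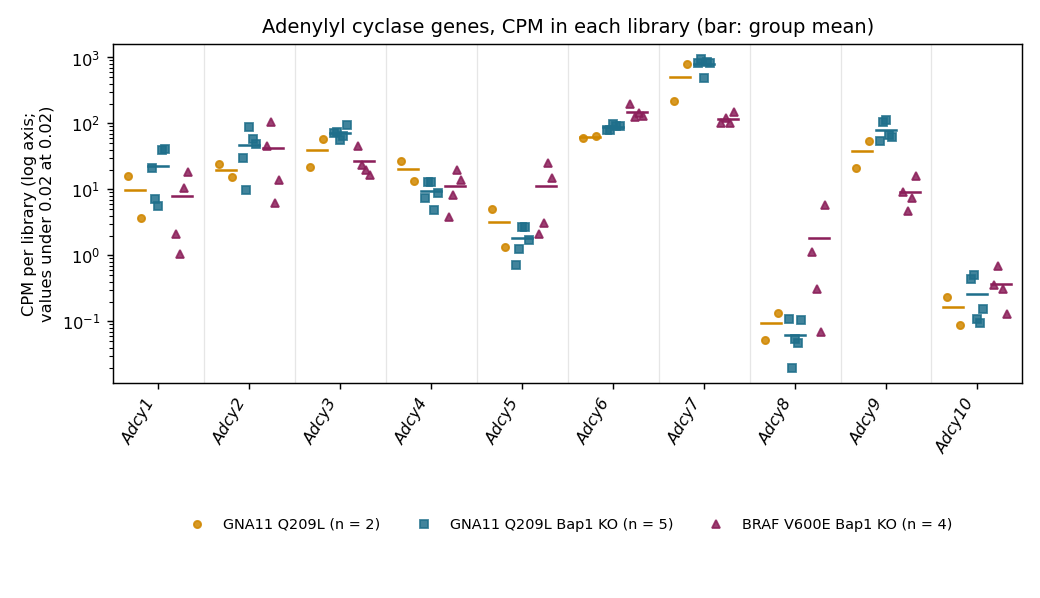
CPM of the 10 adenylyl cyclase genes in each library on a log axis, with points for libraries, colours for the 3 genotypes and short bars for group means. Adcy7 and Adcy9 are higher in all 7 GNA11 libraries than in all 4 BRAF libraries, and Adcy6 is lower.

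Per kilobase of annotated exon, which allows levels to be compared between genes, Adcy7 was the most abundant cyclase of both GNA11 genotypes. It made up 51.1% and 76.0% of the summed cyclase CPM per kilobase in GNA11 Q209L and 51.4% to 73.2% in GNA11 Q209L Bap1 KO, and 22.5% to 37.7% in BRAF V600E Bap1 KO. The share of Adcy6 was 6.34% to 10.5% in GNA11 Q209L Bap1 KO and 28.6% to 44.9% in BRAF V600E Bap1 KO, where it was ahead of Adcy7 in replicates 1, 2 and 3. In BRAF replicate 2 Adcy2 was ahead of both, at 33.4%, and in replicate 4 Adcy7 led. The summed cyclase level was 154 to 205 CPM per kilobase in GNA11 Q209L Bap1 KO, 57.2 to 73.6 in BRAF V600E Bap1 KO and 69.3 and 168 in GNA11 Q209L. One GNA11 Q209L library therefore lay in the range of each of the other genotypes.

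Phosphodiesterases were 21 of the 42 rows, 20 of them tested, with 3 higher, 4 lower and 13 without a call in GNA11 Q209L Bap1 KO against BRAF V600E Bap1 KO. The shares of all genes were 16.5% higher and 24.7% lower. Pde11a, which hydrolyses both cyclic AMP and cyclic GMP, gave the largest difference of all members. It was at 8.09 and 17.6 CPM in the GNA11 Q209L tumours, at 123, 79.8, 161, 139 and 103 CPM in those of GNA11 Q209L Bap1 KO, and at 0.483, 0.988, 1.74 and 1.4 CPM in the BRAF tumours. The 3 genotypes did not overlap, and their means were 12.8 ± 6.74, 121 ± 31.3 and 1.15 ± 0.542 CPM (SD, n = 2, 5 and 4). GNA11 Q209L Bap1 KO was 105-fold above BRAF V600E Bap1 KO (log2 fold change 6.73 ± 0.50, adjusted p = 4.99e-05), and it passed in all 19 alternatives tried, with a largest adjusted p of 0.001.

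Against GNA11 Q209L, Pde11a was 9.43 times higher by group means in GNA11 Q209L Bap1 KO (log2 fold change 3.24 ± 0.56, unadjusted p = 0.000131, adjusted p = 0.0867). This did not pass in edgeR's main test, and the 19 alternatives gave adjusted p-values from 2.08e-07 to 0.709. It passed with DESeq2 (adjusted p = 2.08e-07), with limma voom (0.0306), with only the libraries of the 2 genotypes compared (0.0361) and without BRAF replicate 1 (0.0449). The largest value came without GNA11 Q209L replicate 1, which leaves that genotype 1 library (log2 fold change 2.78, and 3.96 without replicate 2). Cell markers also differed here. The sums of 7 proliferating-cell markers did not overlap, at 45.9 and 60.3 CPM in GNA11 Q209L and 115 to 455 CPM in the GNA11 Q209L Bap1 KO tumours (median log2 fold change 2.03, none of the 7 called). GNA11 Q209L replicate 1 stood apart from replicate 2 in macrophage markers (5956 and 650.0 CPM) and fibroblast markers (11268 and 2874 CPM). Their part in the difference of Pde11a, or of other members in this comparison, was not tested. Of all genes tested, 16.6% did not overlap in this comparison, 7.58% with the Bap1 knockout higher and 9.01% with it lower. Of the members, 8 of 40 did not overlap, 4 in each direction: Pde11a, Prkacb, Crtc3 and Adcy6 higher, and Pde1a, Pde4b, Pde7a and Adcy4 lower. In GNA11 Q209L, Pde11a was also above BRAF V600E Bap1 KO (log2 fold change 3.49 ± 0.48, adjusted p = 0.00261).

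The 250 bases upstream of Pde11a (chr2:76338939-76339188, minus strand, GRCm38.p6) are shown because this gene separated all 3 genotypes. None of the 4 motifs was found in the window, so no letter is in capitals.
Pde11a: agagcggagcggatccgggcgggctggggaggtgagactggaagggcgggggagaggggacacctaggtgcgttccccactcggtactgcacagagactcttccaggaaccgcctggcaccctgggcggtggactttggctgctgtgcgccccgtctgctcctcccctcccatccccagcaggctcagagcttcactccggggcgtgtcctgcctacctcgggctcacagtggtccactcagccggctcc
No match says only that those letters are not in these bases. Pde11a has 1 start site in the table.

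Pde3b, an insulin-responsive phosphodiesterase of fat and liver that cyclic GMP inhibits, showed the opposite pattern and was at 7.22 and 5.31 CPM in the GNA11 Q209L tumours, at 6.35, 5.81, 5.79, 7.71 and 5.25 CPM in those of GNA11 Q209L Bap1 KO, and at 359, 187, 37.2 and 44.9 CPM in the BRAF tumours. The GNA11 genotypes lay together between 5.25 and 7.71 CPM, and all 4 BRAF libraries were above them. The difference was 25.4-fold by group means (log2 fold change -4.67 ± 0.64, adjusted p = 0.000816), and the log2 fold change was -3.87 (adjusted p = 0.00107) without BRAF replicate 1. GNA11 Q209L was lower than BRAF V600E Bap1 KO by a like amount (log2 fold change -4.65 ± 0.95, adjusted p = 0.0145), with adjusted p = 0.0666 without GNA11 Q209L replicate 1 and 0.155 without replicate 2. Markers of 3 other cell types are given beside Pde3b. In BRAF replicates 1 to 4 the 5 mast cell markers summed to 321, 64.6, 69.3 and 93.0 CPM, and to at most 1.57 CPM in any GNA11 library, where Fcer1a was at 0 in every one. All 5 were called lower in GNA11 Q209L Bap1 KO, where 24.7% of all genes were lower and 41.2% were called in either direction. The 7 macrophage markers summed to 2291, 1826, 584 and 1339 CPM in those 4 libraries. Of these, 3 were called, all lower (42.9%, near the 41.2% of all genes called). Their sums were 190 to 981 CPM in the GNA11 Q209L Bap1 KO tumours and 5956 and 650.0 CPM in GNA11 Q209L. The 6 adipocyte markers summed to 2.40, 171, 53.6 and 343 CPM in the BRAF libraries, and 4 were called lower (66.7%). Their sums were 29.7 to 73.2 CPM in the GNA11 Q209L Bap1 KO tumours and 405 and 24.6 CPM in GNA11 Q209L. The part of these cells in Pde3b was not tested. Its close relative Pde3a, the form of heart and platelets, was at 6.7 and 34.6 CPM in the GNA11 Q209L tumours, at 59.6, 35.8, 16.9, 43 and 76.7 CPM in those of GNA11 Q209L Bap1 KO, and at 0.506, 1.87, 3.8 and 7.39 CPM in the BRAF tumours. It was higher in GNA11 Q209L Bap1 KO with no overlap (log2 fold change 3.78 ± 0.82, adjusted p = 0.00624), and without BRAF replicate 4 the log2 fold change was 4.50. The 2 Pde3 genes thus differed in opposite directions, each past the threshold.

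Among the calcium and calmodulin-dependent Pde1 genes, Pde1a was at 5.68 and 1.65 CPM in the GNA11 Q209L tumours, at 0.652, 0.221, 1.03, 0.809 and 0.432 CPM in those of GNA11 Q209L Bap1 KO, and at 14.8, 4.06, 20.2 and 4.72 CPM in the BRAF tumours. The GNA11 Q209L Bap1 KO tumours were below the BRAF tumours, without overlap (log2 fold change -4.12 ± 0.68, adjusted p = 0.00197). Against GNA11 Q209L it was also lower without overlap (log2 fold change -2.55 ± 0.74, unadjusted p = 0.00545, adjusted p = 0.258), but this passed only with DESeq2 among the 19 alternatives. The log2 fold change was -1.39 without GNA11 Q209L replicate 1 and -1.52 with Xist as a covariate. Pde1b ran from 10.2 to 162 CPM within GNA11 Q209L Bap1 KO and Pde1c from 0.674 to 15.3 CPM within BRAF V600E Bap1 KO, and neither passed in any comparison. Pde2a, which cyclic GMP stimulates, was at 103 and 49.9 CPM in the GNA11 Q209L tumours, at 32.7, 47.3, 39.4, 18.1 and 62.9 CPM in those of GNA11 Q209L Bap1 KO, and at 7.53, 16.9, 21.2 and 27.3 CPM in the BRAF tumours. It missed the threshold against BRAF V600E Bap1 KO (log2 fold change 1.14 ± 0.44, adjusted p = 0.0574) and passed with DESeq2 (adjusted p = 0.0288), with limma voom (0.0477), without replicate 4 of GNA11 Q209L Bap1 KO (0.023) and without BRAF replicate 4 (0.0457). The GNA11 Q209L tumours were above the BRAF tumours (log2 fold change 2.07 ± 0.53, adjusted p = 0.0307), a call lost without either GNA11 Q209L library (adjusted p = 0.163 without replicate 1 and 0.0887 without replicate 2), without BRAF replicate 2 (0.0572), without BRAF replicates 2 and 4 (0.0654) and with Xist as a covariate (0.0618). The 8 endothelial markers summed to 1025 and 650 CPM in GNA11 Q209L and to 350 to 492 CPM in GNA11 Q209L Bap1 KO. They summed to 178 to 306 CPM in the BRAF tumours. Against the BRAF tumours 1 of the 8 was called, higher in GNA11 Q209L Bap1 KO (12.5%, and 41.2% of all genes were called). Their part in Pde2a or Adcy4 was not tested. The ID that the table calls Pde2a belongs to a gene of another symbol in GENCODE M21, so its identity and length are uncertain.

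The Pde4 genes encode the cyclic AMP-specific enzymes that rolipram inhibits. Pde4b was at 38 and 33.8 CPM in the GNA11 Q209L tumours, at 12.2, 17, 10.8, 18.9 and 22.4 CPM in those of GNA11 Q209L Bap1 KO, and at 30.9, 99, 29.3 and 26.9 CPM in the BRAF tumours. It was lower in GNA11 Q209L Bap1 KO than in each of the other genotypes without overlap, and passed against BRAF V600E Bap1 KO (log2 fold change -1.52 ± 0.41, adjusted p = 0.0158) but not against GNA11 Q209L (log2 fold change -1.14 ± 0.49, unadjusted p = 0.0406, adjusted p = 0.414). BRAF replicate 2 held 99.0 CPM and the other 3 BRAF libraries 26.9 to 30.9 CPM. Without that replicate the log2 fold change was -0.84 (adjusted p = 0.0375), and without replicates 2 and 4 it was -0.90 (adjusted p = 0.0717). Replicate 2 also had the highest sum of neutrophil markers, 300.2 CPM against 18.4 to 69.1 CPM in the other BRAF libraries, and their part was not tested.

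Pde4a was at 31.4 and 35 CPM in the GNA11 Q209L tumours, at 35.7, 60.7, 36.6, 30.8 and 58.5 CPM in those of GNA11 Q209L Bap1 KO, and at 38.2, 15.9, 17.3 and 32.6 CPM in the BRAF tumours. It did not pass in the main test (log2 fold change 0.77 ± 0.33, adjusted p = 0.0806) and did without GNA11 Q209L Bap1 KO replicate 4 (0.0492) or BRAF replicate 1 (0.0368). The 2 Pde4d rows had means of 10.3 and 4.70 CPM in the GNA11 Q209L Bap1 KO tumours and 12.9 and 5.02 CPM in the BRAF tumours, without a call for either. How reads were divided between these IDs is not given in the sources used here. Pde4c was under 2.4 CPM in every library.

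Among the other cyclic AMP-specific families, Pde7a was at 47 and 45.8 CPM in the GNA11 Q209L tumours, at 38.9, 22.7, 25.9, 13.7 and 12.5 CPM in those of GNA11 Q209L Bap1 KO, and at 25.7, 49.9, 37.1 and 34.8 CPM in the BRAF tumours. Both GNA11 Q209L libraries were above all 5 GNA11 Q209L Bap1 KO libraries (log2 fold change -1.03 ± 0.41, unadjusted p = 0.0297, adjusted p = 0.385), which is no call. Pde7b was at 39.4 and 33.7 CPM in the GNA11 Q209L tumours, at 22.2, 47.6, 7.52, 27.9 and 6.88 CPM in those of GNA11 Q209L Bap1 KO, and at 89.3, 52.8, 49.1 and 32.8 CPM in the BRAF tumours, and its difference from BRAF V600E Bap1 KO (log2 fold change -1.32 ± 0.54, adjusted p = 0.0706) passed with limma voom (adjusted p = 0.026) and without GNA11 Q209L Bap1 KO replicate 2 (0.0263). Pde8a, a high-affinity cyclic AMP enzyme, split the BRAF tumours: replicates 1 and 2 were at 20.1 and 18.03 CPM and replicates 3 and 4 at 213 and 146 CPM, on either side of all 5 GNA11 Q209L Bap1 KO libraries at 64.6 to 95.6 CPM. Replicates 3 and 4 also had the higher Sox10, a marker of melanocytes and Schwann cells (533 and 232 CPM, and 1.93 and 3.58 CPM in replicates 1 and 2). Their fibroblast marker sums were higher (18214 and 11692 CPM, and 3441 and 3115 CPM), as were the keratinocyte and Schwann cell sums given above. The part of these cells in the Pde8a split was not tested. Pde8b was between 1.47 and 10.6 CPM, without a call.

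The enzymes that prefer or require cyclic GMP differed in both directions. Pde9a was at 1.6 and 0.223 CPM in the GNA11 Q209L tumours, at 0.543, 0.442, 0.649, 0.714 and 0.83 CPM in those of GNA11 Q209L Bap1 KO, and at 0.652, 1.6, 6.41 and 7 CPM in the BRAF tumours. It was called lower in GNA11 Q209L Bap1 KO (log2 fold change -2.60 ± 0.76, adjusted p = 0.0202), and the call was lost without BRAF replicate 4 (log2 fold change -2.18, adjusted p = 0.0531), without replicates 2 and 4 (-2.44, adjusted p = 0.066) and with limma voom (-1.63, adjusted p = 0.17). Pde5a, the target of sildenafil, was at 27.5 and 43.3 CPM in the GNA11 Q209L tumours, at 63.6, 51.4, 6.98, 48.9 and 37.6 CPM in those of GNA11 Q209L Bap1 KO, and at 3.19, 3.44, 23.3 and 9.92 CPM in the BRAF tumours. Its call (log2 fold change 2.07 ± 0.72, adjusted p = 0.0406) was lost in 12 of 19 alternatives, among them the leaving out of GNA11 Q209L replicate 1 (adjusted p = 0.0518), of GNA11 Q209L Bap1 KO tumour 1 (0.0775), 2 (0.0706), 4 (0.0575) or 5 (0.0596) and of BRAF replicate 1 (0.0787), 2 (0.0895) or 4 (0.0787). The Pde5a call was also lost with BRAF replicates 2 and 4 left out together. Without BRAF replicate 3 its log2 fold change was 2.91 (adjusted p = 0.0128). The 7 smooth muscle and pericyte markers summed to 605, 917, 204, 739 and 650 CPM in GNA11 Q209L Bap1 KO replicates 1 to 5. They summed to 369, 180, 864 and 622 CPM in BRAF replicates 1 to 4 and to 833 and 1055 CPM in GNA11 Q209L. Against the BRAF tumours 1 of the 7 was called, lower in GNA11 Q209L Bap1 KO (14.3%, and 41.2% of all genes were called). Their part in Pde5a was not tested.

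Pde10a, the dual enzyme of the striatum, was between 15.4 and 85.5 CPM without a call. Pde6d, a prenyl-binding carrier protein that is named after the photoreceptor enzyme and does not hydrolyse cyclic AMP, varied little, at 21.3 to 36.3 CPM over all libraries. The rod enzyme Pde6b stayed at or under 0.471 CPM and was not tested. Over all 4 roles, the 23 members without a call against the BRAF tumours had log2 fold changes from -1.32 to 1.52, 12 of them positive.

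**Figure D3:**
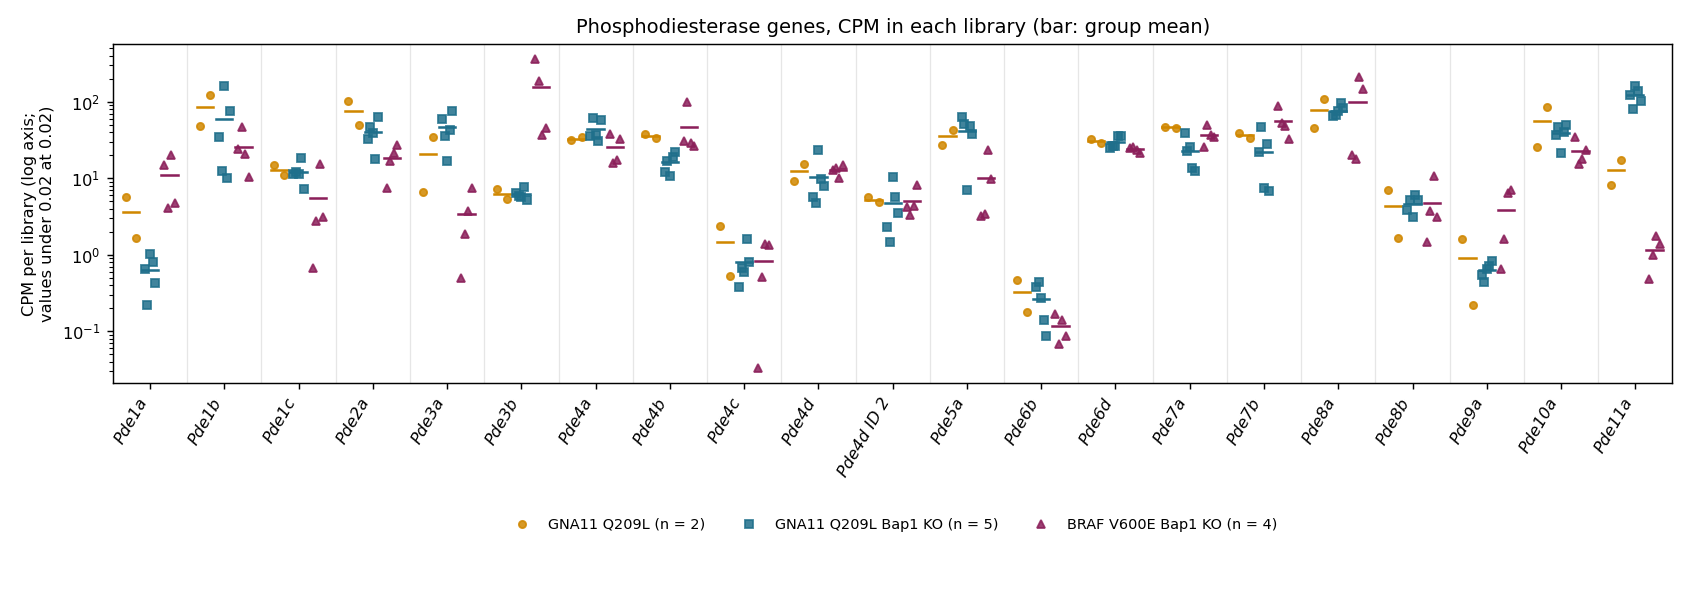
CPM of the 21 phosphodiesterase rows in each library on a log axis, with points for libraries, colours for the 3 genotypes and short bars for group means. Pde11a separates the 3 genotypes, and Pde3b is at 5.25 to 7.71 CPM in all GNA11 libraries and at 37.2 to 359 CPM in the BRAF libraries.

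Per kilobase of exon, over the 18 phosphodiesterases with a usable length (Pde6d, Pde2a and the second Pde4d row left out), Pde11a made up 22.5% to 34.3% of the sum in GNA11 Q209L Bap1 KO, 2.88% and 3.72% in GNA11 Q209L, and 0.105% to 0.408% in BRAF V600E Bap1 KO. It was the most abundant of them in replicates 1, 2, 4 and 5 of GNA11 Q209L Bap1 KO, and Pde1b was in replicate 3. In BRAF V600E Bap1 KO the leading gene was Pde3b in replicates 1 and 2 (49.9% and 32.8%) and Pde8a in replicates 3 and 4 (52.1% and 47.1%). The summed level overlapped between the genotypes, at 84.8 to 126 CPM per kilobase in GNA11 Q209L Bap1 KO, 81.8 to 109.5 in BRAF V600E Bap1 KO and 67.0 and 113 in GNA11 Q209L.

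**Figure D4:**
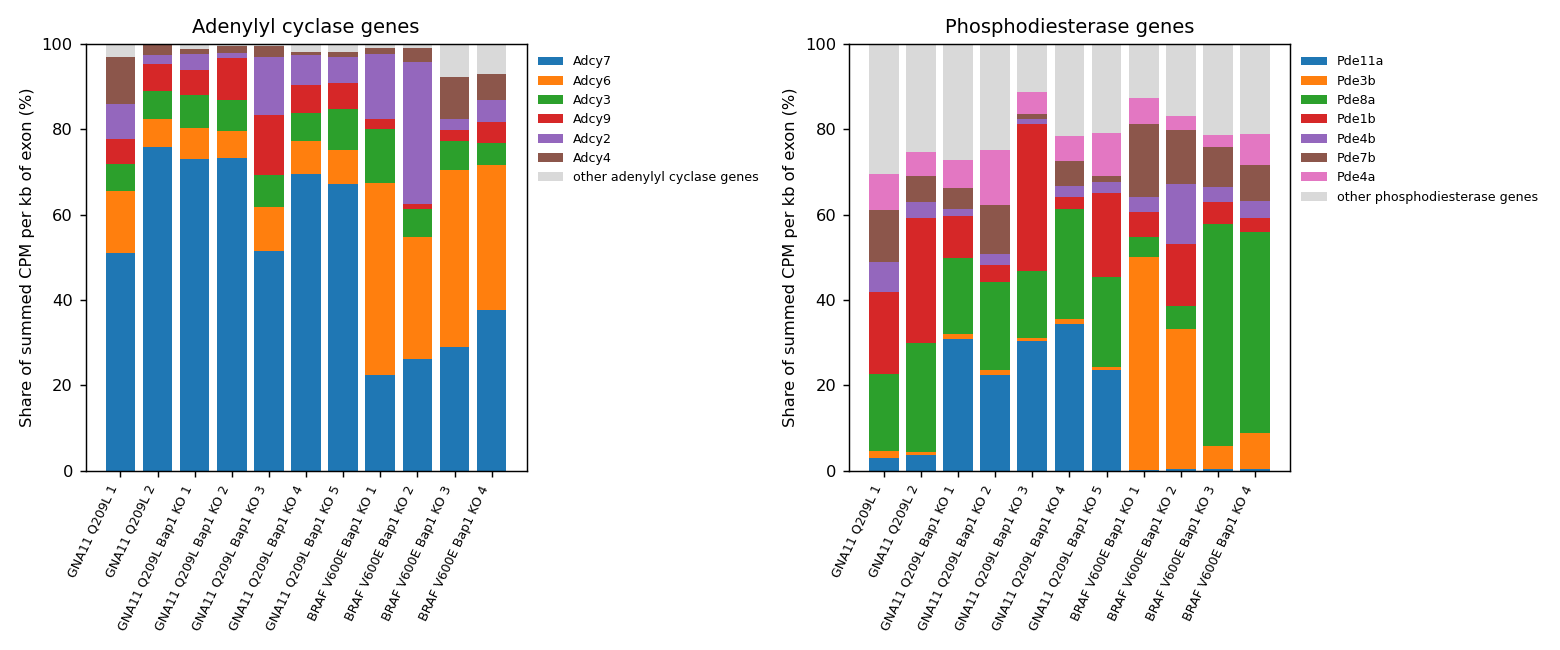
Share of the summed CPM per kilobase of exon for adenylyl cyclases (left) and phosphodiesterases (right), with 1 stacked bar for each of the 11 libraries and the smaller genes joined in grey. Adcy7 takes 51.1% or more of the cyclase sum in every GNA11 library, and the BRAF libraries fall into a pair led by Pde3b and a pair led by Pde8a.

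PKA is a tetramer of 2 catalytic and 2 regulatory subunits. Of its 6 genes, 2 were higher in GNA11 Q209L Bap1 KO against the BRAF tumours and 4 had no call, where 41.2% of all genes were called and 16.5% were higher. Prkaca, a catalytic subunit, was at 121 and 179 CPM in the GNA11 Q209L tumours, at 144, 279, 172, 137 and 199.5 CPM in those of GNA11 Q209L Bap1 KO, and at 78, 49.1, 58.4 and 81.2 CPM in the BRAF tumours. All 7 GNA11 libraries were above all 4 BRAF libraries, with a 2.79-fold difference of means (log2 fold change 1.48 ± 0.28, adjusted p = 0.0033) that passed in all 19 alternatives. The secondary comparison gave a log2 fold change of 1.17 (adjusted p = 0.0406), and the call was lost in 10 of 19 alternatives. Among them were the leaving out of GNA11 Q209L replicate 1 or 2 (log2 fold change 1.43 and 0.87). Others left out GNA11 Q209L Bap1 KO tumour 1 (adjusted p = 0.0509), 3 (0.0555) or 5 (0.0542), or BRAF replicate 2 (0.074) or 3 (0.0708). With BRAF replicates 2 and 4 both left out, the Prkaca call was lost as well (log2 fold change 1.11, adjusted p = 0.123). Prkacb, the other catalytic subunit, was at 172 and 143 CPM in the GNA11 Q209L tumours, at 185, 214, 211, 239.9 and 255 CPM in those of GNA11 Q209L Bap1 KO, and at 509, 191, 125 and 107 CPM in the BRAF tumours. BRAF replicate 1 alone was at 509 CPM, and the log2 fold change was -0.08 (adjusted p = 0.895) with it and 0.65 (adjusted p = 0.0541) without it.

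Prkar1a, the type I regulatory subunit and the gene of Carney complex, was at 579.5 and 694 CPM in the GNA11 Q209L tumours, at 633, 1003, 768, 667 and 973 CPM in those of GNA11 Q209L Bap1 KO, and at 709, 339, 362 and 341 CPM in the BRAF tumours. It was called higher in GNA11 Q209L Bap1 KO (log2 fold change 0.89 ± 0.30, adjusted p = 0.0381). BRAF replicate 1 lay inside the GNA11 Q209L Bap1 KO range at 709 CPM, and the other 3 BRAF libraries were at 339 to 362 CPM. The call was lost in 8 of 19 alternatives: without the GNA11 Q209L Bap1 KO replicates 2 (adjusted p = 0.0744), 3 (0.0569) or 5 (0.0791), each left out alone, without BRAF replicate 2 (0.0923), 3 (0.092) or 4 (0.0976), without BRAF replicates 2 and 4 (0.3), and with the level of Xist as a covariate (0.0524). Prkar2b, a type II regulatory subunit of brain and fat, was at 33.4 and 8.96 CPM in the GNA11 Q209L tumours, at 14, 13.8, 25.2, 16.7 and 22.5 CPM in those of GNA11 Q209L Bap1 KO, and at 71.9, 46.2, 7.94 and 33.8 CPM in the BRAF tumours. It had no call (log2 fold change -1.11 ± 0.55, adjusted p = 0.124) and passed without BRAF replicate 3, at 7.94 CPM the lowest BRAF library (log2 fold change -1.46, adjusted p = 0.0251). Prkar2a ran from 34.5 to 79.4 CPM and Prkar1b from 2.14 to 7.74 CPM over all libraries, without a call.

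Upstream sequence of the 2 called subunits is shown because they were the PKA genes that differed and because Prkar1a was the 1 member of 33 with an intact CRE (1.77% of 27025 genes have one). The Prkaca window (chr8:83972728-83972977, plus strand, GRCm38.p6, the first of 2 start sites) holds 1 E-box (CACGTG) and 2 CRE cores (CGTCA), all 3 in capitals. For Prkar1a, 30 bases around the CRE are printed, with the CRE in capitals (chr11:109650889-109650918, plus strand). Its first base is 49 bases before 1 of the 6 start sites in the table.
Prkaca: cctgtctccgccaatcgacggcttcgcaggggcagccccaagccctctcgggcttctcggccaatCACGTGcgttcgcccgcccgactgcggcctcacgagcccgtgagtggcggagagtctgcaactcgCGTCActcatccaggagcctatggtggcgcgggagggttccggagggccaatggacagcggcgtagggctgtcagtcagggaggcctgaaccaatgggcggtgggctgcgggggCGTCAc
Prkar1a: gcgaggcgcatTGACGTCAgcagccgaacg
The E-box was present in 5 of the 33 members (15.2%, and 6.86% of all genes) and the M-box in 4 (12.1%, and 3.72%). Genes with several start sites have more windows in which to match, and no binding was measured.

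At the transcription step, 2 of 5 members were higher in GNA11 Q209L Bap1 KO against the BRAF tumours and 3 had no call. Of all genes, 41.2% were called there and 16.5% were higher. Crtc3, a CREB coactivator, was at 61.9 and 126 CPM in the GNA11 Q209L tumours, at 149.8, 179, 159.7, 129 and 184 CPM in those of GNA11 Q209L Bap1 KO, and at 90.1, 60.1, 57.6 and 54.5 CPM in the BRAF tumours. It was higher than in either other genotype without overlap, and passed against BRAF V600E Bap1 KO (log2 fold change 1.29 ± 0.26, adjusted p = 0.00429) but not against GNA11 Q209L (log2 fold change 0.77 ± 0.32, unadjusted p = 0.0363, adjusted p = 0.407). The latter value was 0.35 without GNA11 Q209L replicate 1 and 1.44 without replicate 2. Crtc1 was at 47.6 and 64.8 CPM in the GNA11 Q209L tumours, at 63.3, 99.9, 63.3, 46.1 and 75.1 CPM in those of GNA11 Q209L Bap1 KO, and at 34.5, 18.4, 36.9 and 32.7 CPM in the BRAF tumours. All 4 BRAF libraries were below all 7 GNA11 libraries (log2 fold change 1.18 ± 0.28, adjusted p = 0.00913). Without BRAF replicates 2 and 4 the adjusted p was 0.0563 for Crtc3 and 0.0692 for Crtc1.

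Creb1 itself was at 52.5 and 28.5 CPM in the GNA11 Q209L tumours, at 52.3, 27.8, 76.5, 58.5 and 52.2 CPM in those of GNA11 Q209L Bap1 KO, and at 63, 74.6, 82.4 and 84.8 CPM in the BRAF tumours. It had no call in any comparison, with a log2 fold change of -0.51 ± 0.29 against BRAF V600E Bap1 KO (adjusted p = 0.17). The third coactivator, Crtc2, ran from 49.3 to 113 CPM and Crem, which yields both activators and the cyclic AMP-induced repressor, from 5.25 to 28.4 CPM, both without a call.

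**Figure D5:**
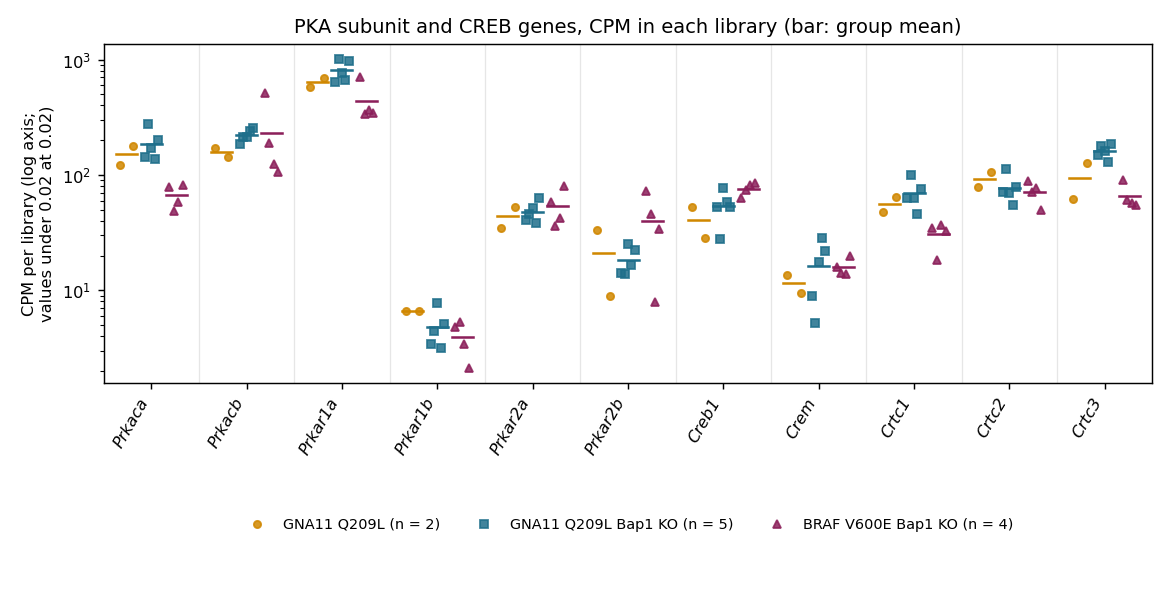
CPM of the 6 PKA subunit genes and the 5 CREB and CRTC genes in each library on a log axis, with points for libraries, colours for the 3 genotypes and short bars for group means. Prkaca, Crtc1 and Crtc3 are lower in all 4 BRAF libraries than in the 5 GNA11 Q209L Bap1 KO libraries, and BRAF replicate 1 is high in Prkacb and Prkar1a.

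The rest of the pathway was read from 6 lists. In GNA11 Q209L Bap1 KO against GNA11 Q209L no gene of any of them passed in edgeR. Against BRAF V600E Bap1 KO, the receptors and G proteins that activate cyclases had 4 genes higher and 13 lower of 23 (73.9% called, median log2 fold change -2.14). Over all genes tested, 16.5% were higher and 24.7% lower, 41.2% in all, with a median of -0.26. The other lists are read against the same shares. The 17 calls became 11 without BRAF replicate 4, 11 with only the 2 genotypes compared and 7 without BRAF replicates 2 and 4. Of all genes, 5806 of 16874, 6200 of 15285 and 3571 of 16254 passed in those settings, in that order. The 4 higher genes were Mc1r, Pth1r, Adora2a and Gnas. They are described because of their p-values or were set in advance, and they go against the direction of the list. The 13 lower genes are not named here. Mc1r, the melanocortin receptor, was at 384 and 1451 CPM in the GNA11 Q209L tumours, at 822, 1875, 486, 969.6 and 1218 CPM in those of GNA11 Q209L Bap1 KO, and at 0.427, 1.06, 4.98 and 4.33 CPM in the BRAF tumours (log2 fold change 8.65 ± 1.01, adjusted p = 0.00039). Pth1r, the parathyroid hormone receptor, had means of 85.7 ± 19.9 and 7.39 ± 2.94 CPM (SD, n = 5 and n = 4) in GNA11 Q209L Bap1 KO and the BRAF tumours (adjusted p = 0.000121). Adora2a, an adenosine receptor, had means of 103 ± 60.7 and 6.24 ± 3.04 CPM (adjusted p = 0.00157). Gnas, the Gs alpha subunit, had means of 47.5 ± 13.2 and 21.8 ± 7.82 CPM (adjusted p = 0.0115), and with BRAF replicates 2 and 4 left out the adjusted p was 0.104. Gnas is uncertain because other transcripts, sense and antisense, share its locus and the counting is not stated to use strand.

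The receptors and G proteins that inhibit cyclases had 2 genes higher and 6 lower of 14 (57.1% called, median log2 fold change -0.61). Lpar1, a lysophosphatidic acid receptor, was at 18.4 and 2.19 CPM in the GNA11 Q209L tumours, at 3.2, 1.77, 1.68, 0.524 and 0.432 CPM in those of GNA11 Q209L Bap1 KO, and at 212, 65.6, 99.9 and 44.3 CPM in the BRAF tumours (log2 fold change -6.13 ± 0.86, adjusted p = 0.000911). Adra2a, an adrenergic receptor coupled to Gi, and Gnai1, a Gi alpha subunit, were also lower in GNA11 Q209L Bap1 KO, by 2.94 and 2.89 on the log2 scale (adjusted p = 0.00164 and 0.00791). Fibroblast markers moved with this comparison, with 6 of 7 lower and sums of 370.5 to 2269 CPM over the GNA11 Q209L Bap1 KO tumours and 3115 to 18214 CPM in the BRAF tumours, and their part was not tested.

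Anchoring proteins that hold PKA in place had 3 higher and 4 lower of 16 (43.8% called, near the 41.2% of all genes, with a median of 0.15). There were 4 calls in all without GNA11 Q209L Bap1 KO replicate 5 or without BRAF replicates 2 and 4. Of all genes, 5448 of 17327 and 3571 of 16254 passed in those settings. Wasf1, an actin regulator that binds PKA, had means of 17.3 ± 2.99 and 4.03 ± 1.57 CPM (adjusted p = 0.00158), Akap2 6.2 ± 0.969 and 0.44 ± 0.383 CPM (adjusted p = 0.00282), and Akap6, an anchor of muscle and nerve, 1.93 ± 0.696 and 12.5 ± 7.37 CPM (adjusted p = 0.00698). PKA inhibitors and other cyclic AMP effectors had 3 higher and 3 lower of 13 (46.2% called, also near 41.2%, with a median of 0.54). Rapgef4 (Epac2), the exchange factor that cyclic AMP opens without PKA, was at 277 and 148 CPM in the GNA11 Q209L tumours, at 288, 244, 317, 436 and 260.3 CPM in those of GNA11 Q209L Bap1 KO, and at 34.5, 5.59, 9.02 and 6.03 CPM in the BRAF tumours (log2 fold change 4.48 ± 0.62, adjusted p = 0.000878). The PKA inhibitor genes differed in opposite directions, Pkib higher (log2 fold change 2.43 ± 0.41, adjusted p = 0.00219) and Pkig lower (log2 fold change -1.63 ± 0.39, adjusted p = 0.00966) in GNA11 Q209L Bap1 KO. Popdc3, a cyclic AMP-binding membrane protein of muscle, was at 0 in both GNA11 Q209L libraries, at most 0.325 CPM in the GNA11 Q209L Bap1 KO tumours and 2.68 to 6.69 CPM in the BRAF tumours (adjusted p = 0.00296).

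Kinases and relatives of CREB had 1 gene higher and 6 lower of 15 (46.7% called, near 41.2%, with a median of -0.39). There were 4 calls in all without BRAF replicate 2 or without BRAF replicates 2 and 4. Of all genes, 6022 of 16966 and 3571 of 16254 passed in those settings. Among the lower genes was Sik1, a kinase that holds CRTC proteins in the cytoplasm, at 26.3 and 12.3 CPM in the GNA11 Q209L tumours, at 9.56, 12.9, 14.4, 14.6 and 12.7 CPM in those of GNA11 Q209L Bap1 KO, and at 35.2, 98.7, 42.2 and 47.6 CPM in the BRAF tumours (log2 fold change -2.12 ± 0.35, adjusted p = 0.00185). Creb5 and Camk4 were lower by 4.41 and 2.60 on the log2 scale (adjusted p = 0.000855 and 0.00546). Known targets of cyclic AMP and CREB had 5 higher and 10 lower of 20 (75.0% called, where 41.2% of all genes were, and a median log2 fold change of -1.23). The higher ones were Nr4a3, Mitf, Tyr, Dct and Nr4a1, and Mitf, Tyr and Dct are melanocyte genes that the marker list above also holds. Nr4a3, an orphan nuclear receptor, was at 494 to 848 CPM in the GNA11 Q209L Bap1 KO tumours and at 8.83 to 11.2 CPM in the BRAF tumours (log2 fold change 5.97 ± 0.40, adjusted p = 3.35e-05). Sik1, Nr4a2, Per2, Areg, Bdnf, Rgs2, Egr1, Junb, Fosb and Pck1 were lower, so the list did not move in 1 direction.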

How the data were processed

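The authors deposited 1 table of estimated counts per gene for 11 libraries, not normalised, with STAR alignment to mm9 per the submitters' processing notes. The sources used here name no counting program, annotation or strand handling, so overlapping, antisense and near-identical genes are uncertain. The estimated counts are whole numbers. From 18763 lines with a gene ID, 7 repeated lines were dropped, and 6 transgene lines were kept out of library sizes. Genotypes were taken from the labels and replicates numbered in accession order.

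Genes were filtered by filterByExpr, scaled by TMM (factors 0.801 to 1.36) and tested by edgeR 4.0.16 (R 4.3.3, glmQLFit and glmQLFTest) with all 11 libraries in 1 fit, two-sided, with Benjamini-Hochberg adjustment over 17350 genes and a threshold of 0.05. The standard error is the log2 fold change over the root of its F statistic. The script was tested on simulated data. Levels per kilobase use merged exons of GENCODE M21 (GRCm38), for the 40 rows whose symbol matched their ID there. Standard deviations are spreads between libraries, and the floors (3 counts) cover counting error only.

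Members, gene lists and marker lists were chosen with earlier results of these data known. Values in every library were given for the 20 members with the smallest p against BRAF V600E Bap1 KO, the 6 with the smallest p against GNA11 Q209L, and Prkaca, Prkacb, Prkar1a, Prkar2b and Creb1. From each pathway list, the up to 3 genes with the smallest p against BRAF V600E Bap1 KO and Mc1r, Gnas, Pkig and Sik1 were named with values. Alternatives were DESeq2 1.42.0, limma 3.58.1 (voom), RLE scaling, no filter, only the 2 genotypes compared, summing the 2 libraries that share an identifier, Xist as a covariate, leaving out each library, and, chosen after seeing the data, leaving out the 2 BRAF libraries with NA in the lower header line.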

Additional observations from a re-analysis of the deposited data

Results flagged for a closer look

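Over 48 groups examined (24 members in the genotypes with 4 or 5 libraries), 4 had a library that stood far from the others by Dixon's test. Chance flags about 1 in 20 groups. Adcy7 in GNA11 Q209L Bap1 KO replicate 3 was at 493 CPM, below the other 4 libraries at 817 to 935 CPM. BRAF V600E Bap1 KO replicate 1 was high in both Crtc3, at 90.1 CPM with the other 3 at 54.5 to 60.1 CPM, and Prkar1a, at 709 CPM with the other 3 at 339 to 362 CPM. Pde4b in BRAF V600E Bap1 KO replicate 2 was at 99.0 CPM, with the other 3 at 26.9 to 30.9 CPM.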

How the results depend on the processing

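Against BRAF V600E Bap1 KO, 8 of the 17 called members passed in all 19 alternatives (Adcy6, Adcy7, Adcy9, Pde11a, Pde1a, Pde3a, Pde3b and Prkaca), 5 were lost once (Adcy3, Adcy8, Crtc1, Crtc3 and Pde4b, of which Adcy8 was tested in 15 alternatives only) and 4 more often (Adcy5, Pde9a, Prkar1a and Pde5a). With the BRAF libraries of NA Bap1 status left out, 9 members and 3571 genes were called, from 17 and 7146, with fewer samples in the fit. Leaving out single libraries gave 14 to 18 members. Prkacb, at -0.08, changed sign with voom (0.26), with summed libraries of 1 identifier (0.013), with Xist (0.026) and over single libraries left out (-0.32 to 0.65), the cause not tested. Limma voom split its calls 2986 higher and 3117 lower, and edgeR 2865 and 4281.

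For Bap1 under GNA11, genes called went from 5 to 451 (DESeq2), 3 (RLE scaling), 3 (no filter), 64 (only the 2 genotypes compared), 0 (summed libraries), 0 (Xist) and 0 to 13 (1 library left out, 13 without BRAF replicate 1). Members called went from 0 to 2 (DESeq2), 1 (voom), 1 (only the 2 genotypes compared) and 0 to 1 (1 library left out).

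For GNA11 Q209L against BRAF V600E Bap1 KO, genes called went from 2637 to 5459 (DESeq2, 2325 higher and 3134 lower, where edgeR had 1609 and 1028), 417 (only the 2 genotypes compared), 1273 (Xist), 838 (NA libraries left out) and 265 to 2867 (1 library left out, 1078 without GNA11 Q209L replicate 1, 265 without replicate 2 and 1737 without BRAF replicate 2). Members called went from 7 to 0 (only the 2 genotypes compared), 4 (Xist), 3 (NA libraries left out) and 1 to 8 (1 library left out, 4 without GNA11 Q209L replicate 1 and 1 without replicate 2). A fit without 1 GNA11 Q209L library assumes that the lone library varies like the other genotypes. No paired analysis was possible because the labels give no replicate numbers shared between genotypes. A library's depth puts 3 counts at 0.037 to 0.164 CPM, which limits Adcy8, Adcy10 and Pde6b.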
